A study of Homo sapiens and Mus musculus with 18 samples.

Results

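The genes described here encode the transport machinery, the gate and the motor arms of cilia. They were chosen by symbol: every protein-coding gene whose GENCODE symbol begins with IFT, BBS, TCTN or DNAH and a number, or with DYNC2. The rule found 92 genes, 43 of the 44910 genes counted in human samples and 49 of the 29720 counted in mouse samples. The human set held 27 transport genes (15 IFT, 8 BBS and 4 DYNC2), 3 TCTN genes and 13 DNAH genes. The mouse set held 31 transport genes (19 IFT, 8 BBS and 4 DYNC2), 3 TCTN genes and 15 DNAH genes. A total of 42 symbols occurred in both species. DNAH7 was present under that symbol only in human, whereas Dnah7a, Dnah7b, Dnah7c, Ift56, Ift70a1, Ift70a2 and Ift70b were present under those symbols only in mouse. IFT genes with other symbols, such as TTC26, TTC30A and TTC30B, were counted in a separate list that found 8 human and 5 mouse genes. The numbers of IFT genes found by the rule therefore do not compare the species.

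A cilium is a microtubule-based protrusion of the cell surface. Intraflagellar transport (IFT) carries cargo along it: IFT-B complexes travel towards the tip with kinesin-2, and IFT-A complexes return with dynein-2, whose subunits are encoded by the DYNC2 genes. The BBSome, an assembly of BBS proteins, rides on these trains and moves membrane proteins such as signalling receptors in and out of the cilium. Tectonics, encoded by TCTN genes, belong to the transition zone, the gate at the base of the cilium. Primary cilia, which most cells can build and which are required for Hedgehog signalling in the embryo, use these parts without beating. The DNAH genes encode axonemal dynein heavy chains, the outer and inner arm motors that make motile cilia and sperm flagella beat.

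RNA-seq counts were available for 9 groups with 2 replicates each. Human naive and primed embryonic stem cells (ESCs) came from the H9 line, the naive cells being chemically reset and grown in PXGL on irradiated mouse fibroblast feeders that were removed over passages. Primed RUES2-GLR ESCs, a human triple-reporter line, gave rise to gastruloids, stem-cell aggregates that elongate and pattern themselves, through CHIR99021 and retinoic acid (RA-gastruloids). Early and late RA-gastruloids were sampled at 24 h and 120 h, and Matrigel with retinoic acid was added between these times. Both mouse gastruloid stages were sampled later after induction than the human stage of the same name. Mouse groups came from the E14Tg2a line: naive ESCs in 2iLIF, epiblast-like cells (EpiLCs, a primed state reached with Activin A and bFGF), and early and late gastruloids induced by a CHIR99021 pulse. The mouse gastruloids were seeded from 2iLIF ESCs, so EpiLCs are a stage in the comparison and not the cells from which the gastruloids grew. Each gastruloid sample pooled many gastruloids, and each group represents 1 cell line. In bulk samples, fewer cells of a type and less RNA per cell cannot be told apart. Replicates were described as biological and were collected together, so p-values measure the spread between such samples.

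Total counts ranged from 3681739 (primed RUES2-GLR replicate 2) to 38771193 in human libraries and from 6487157 to 20052505 in mouse libraries. Most marker genes checked followed the labels. KLF17 was at 28.1 and 26.4 CPM (a gene's count scaled to the library's size after TMM normalisation) in naive H9 and had 0 counts in primed H9, and brachyury (T) was at 213 and 212 CPM in early mouse gastruloids. Of 5 primed epiblast markers, FGF5 had 0 counts in every primed H9 and RUES2-GLR library, while the summed list was at 27.8 to 28.2 CPM in naive and 1229 to 1335 CPM in primed H9. The summed naive markers of early mouse gastruloids, at 444 to 451 CPM, lay between those of naive ESCs (1197 to 1256) and EpiLCs (48.2 to 49.2). Mitochondrial genes took 21.4% and 22.4% of counts in primed RUES2-GLR, against 1.64% to 6.71% in all other libraries. Levels scaled by gene length (TPM) are therefore used to set genes side by side within a library or group, and CPM is used between groups.

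Within every library, the median transport gene lay far above the median DNAH gene, although single genes overlapped. The ratio was 35.4 to 99.4 in TPM across human libraries and 62.7 to 179 across mouse libraries. In human groups, 24 to 26 of the 27 transport genes reached a mean of 1 TPM, whereas 1 or 2 of the 13 DNAH genes did. In mouse groups, 30 of the 31 transport genes reached 1 TPM and the exception was Ift70a2, while at most 2 of the 15 DNAH genes did. DYNC2I2, an intermediate chain of dynein-2, was the leading human transport gene in each group, and IFT52, an IFT-B subunit, came next in every group but the early RA-gastruloids, where IFT57, also an IFT-B subunit, did. The leading mouse transport gene was Ift52 in naive ESCs and early gastruloids, Dync2i2 in EpiLCs and Ift74 in late gastruloids. Among human DNAH genes, the leading one was DNAH3 in naive H9, DNAH9 in early RA-gastruloids and DNAH14 in the other 3 groups. In naive H9, 20 and 22 of the 27 transport genes lay above every DNAH gene, and 24 to 26 did in the other human libraries. BBS1, a BBSome subunit, was the lowest human transport gene, at a mean of 0.225 TPM over all samples. Exons of other genes overlap 25.0% of its exonic bases. In mouse, Dnah8, which encodes an outer arm heavy chain known from sperm flagella, averaged 20.2 TPM in naive ESCs and 23.6 TPM in early gastruloids, above most transport genes in those libraries. Only 7 to 9 of the 31 transport genes exceeded every DNAH gene in each naive ESC and early gastruloid library, compared with 28 in each EpiLC library and 30 in each late gastruloid library.

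**Figure D1:**
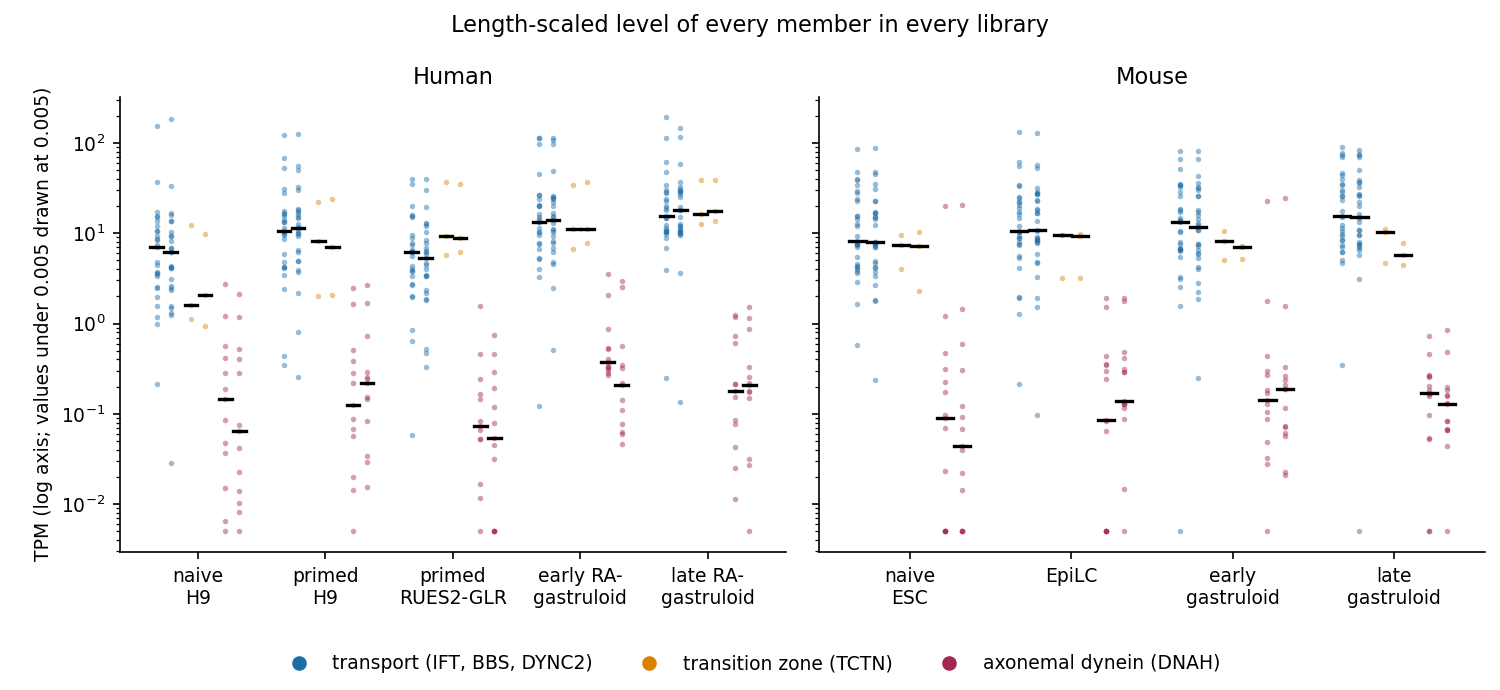
Length-scaled level (TPM, log axis) of every gene in each library, by class. Points are genes, black bars are the median of a class in 1 library, and the paired columns of a group are its 2 replicates. The transport median lies above the DNAH median in every library, though single genes overlap, among them human BBS1 and DNAH3 and the high mouse DNAH point, Dnah8, in naive ESCs and early gastruloids.

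Cilia genes are known targets of RFX transcription factors, which bind the X-box, an imperfect inverted repeat. To show what these promoters look like, windows of 300 bases (250 before and 50 after the start) were searched on both strands for the half-site GTTGCC, and for a pair GTNNCC and GGNNAC separated by at most 3 bases. Pairs and half-sites can overlap. Promoter windows were available for 38 human members (RefSeq, GRCh38.p14) and 49 mouse members (GRCm39). The half-site occurred in 19 of 38 human windows (50%), compared with 12.7% of all human promoters, and in 20 of 49 mouse windows (40.8%), compared with 12.1% of all mouse promoters. The pair occurred in 23.7% of human and 22.4% of mouse member windows, against 4.32% and 4.13% of all promoters. In human, 5 of 11 DNAH windows and 2 of 25 transport windows held a pair. In mouse, none of the 15 DNAH windows and 8 of 31 transport windows did. Both TCTN windows available in human and all 3 in mouse held a pair. Matches are descriptions of letters, not evidence of binding. Human DNAH6 and DNAH11 and mouse Ift70a2 also held a pair before the annotated start and are not printed. The DNAH11 window held no half-site. Windows around such pairs are printed here 5′ to 3′ on the gene's strand, with the pair in capitals, for some human DNAH genes and some mouse Tctn and Ift genes:
Human DNAH1, chr3:52316164-52316277, plus strand, GRCh38.p14: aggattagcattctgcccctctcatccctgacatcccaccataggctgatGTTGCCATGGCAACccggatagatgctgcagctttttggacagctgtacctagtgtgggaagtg
Human DNAH2, chr17:7717676-7717743, plus strand, GRCh38.p14: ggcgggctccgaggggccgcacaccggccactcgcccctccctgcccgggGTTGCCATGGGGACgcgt
Human DNAH12, chr3:57544345-57544435, minus strand, GRCh38.p14: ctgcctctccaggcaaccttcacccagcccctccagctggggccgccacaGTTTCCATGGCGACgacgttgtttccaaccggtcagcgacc
Mouse Tctn2, chr5:124736700-124736811, plus strand, GRCm39: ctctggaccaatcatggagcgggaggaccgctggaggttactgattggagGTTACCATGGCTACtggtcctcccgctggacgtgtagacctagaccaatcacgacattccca
Mouse Tctn3, chr19:40600753-40600865, minus strand, GRCm39: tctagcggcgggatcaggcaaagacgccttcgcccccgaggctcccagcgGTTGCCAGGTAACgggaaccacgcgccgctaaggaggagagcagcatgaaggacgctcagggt
Mouse Ift22, chr5:136936891-136937003, plus strand, GRCm39: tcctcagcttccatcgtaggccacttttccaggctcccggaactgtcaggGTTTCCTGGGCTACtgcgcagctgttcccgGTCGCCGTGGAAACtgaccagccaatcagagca

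Changes between groups were tested with edgeR's quasi-likelihood test across all genes that passed a filter on low counts, and a gene was called when its Benjamini-Hochberg adjusted p was below 0.05 and its absolute log2 fold change above 1. The filter kept 41 human members (not DNAH8 or DNAH12) and 40 mouse members. It removed Dnah3, Dnah6, Dnah7a, Dnah7b, Dnah7c, Dnah9, Dnah14, Dnah17 and Ift70a2, which were near the detection limit. Dnah7a, Dnah7b and Dnah7c, and the Ift70 genes, are near-identical copies whose reads cannot all be assigned uniquely, so their counts are uncertain. In human, 26 of the 41 tested members were called in at least 1 comparison: 14 of 27 transport genes, all 3 TCTN genes and 9 of 11 tested DNAH genes. In mouse, 18 of 40 were called: 11 of 30 transport genes, no TCTN gene and all 7 tested DNAH genes. Of all genes tested, 72.5% in human and 54.3% in mouse were called in at least 1 comparison. A weakly expressed gene can pass the filter through the group where it is high, which favours a later call. The shares called are therefore not compared between classes. By mean CPM, 19 of 27 human transport genes peaked in RA-gastruloids, 8 in early and 11 in late ones, and 20 of 31 mouse transport genes peaked in late gastruloids. The share of all genes peaking in those groups was not counted, so no enrichment can be read from these counts.

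**Figure D2:**
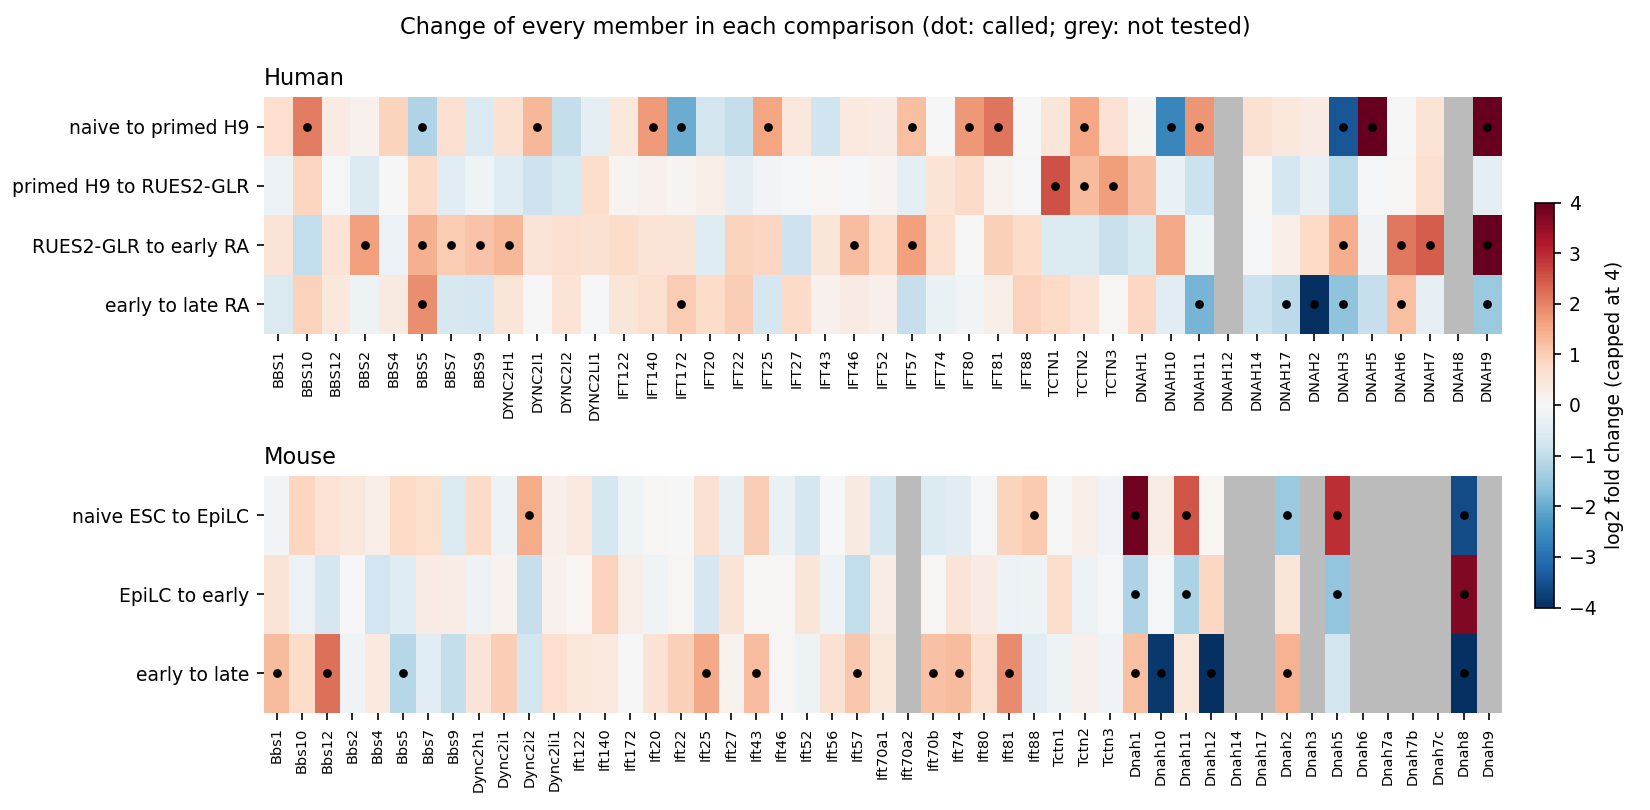
Log2 fold change of every member in each comparison (red, higher in the later group; blue, lower; colours capped at 4). Black dots mark called genes and grey marks genes that were not tested; the column of dots over TCTN1, TCTN2 and TCTN3 in the primed H9 to RUES2-GLR row holds all calls of that comparison.

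Naive and primed H9 cells differed in the direction of different dynein heavy chains and in a set of IFT and BBS genes. Primed cells had higher IFT81, BBS10, IFT80 and TCTN2, and naive cells had higher IFT172, DNAH3 and DNAH10. In all, 11 members were called higher in primed cells and 4 lower, where 25.5% of all genes tested were called higher and 22.3% lower. The transport class contributed 7 higher and 2 lower calls of 27, with a median log2 fold change of 0.40 against 0.00 over all genes, TCTN 1 higher call of 3, and DNAH 3 higher and 2 lower calls of 11.

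IFT81, which helps IFT-B bind tubulin, was at 4.44 and 3.56 CPM in naive H9 and at 16.3 and 18.8 CPM in primed H9. The groups did not overlap, and the log2 fold change was 2.14 ± 0.17 (SE; adjusted p = 6.68e-13). BBS10, a chaperonin-like protein needed to assemble the BBSome, was at 3.87 and 2.75 CPM in naive and at 13.3 and 14.0 CPM in primed cells (log2 fold change 2.04 ± 0.18, adjusted p = 1.31e-11). IFT80, another IFT-B subunit, was at 2.67 and 3.50 CPM and rose to 9.57 and 10.5 CPM (log2 fold change 1.72 ± 0.23). Exons of other genes overlap 31.0% of the exonic bases of IFT80. The sample values of IFT81, BBS10 and IFT80 were each well separated, with every primed library above every naive library. IFT172, the large IFT-B subunit, went the other way, from 54.9 and 49.5 CPM to 12.6 and 13.8 CPM (log2 fold change -1.97 ± 0.13, adjusted p = 4.86e-15). BBS5, a BBSome subunit that binds membrane lipids, was at 1.36 and 1.84 CPM in naive and 0.419 and 0.786 CPM in primed cells, a call at -1.21 ± 0.33 that stood at -0.99, short of the threshold, without primed H9 replicate 1. Among the dynein-2 subunits, only DYNC2I1 was called (8.0 and 9.64 to 20.3 and 23.1 CPM, log2 fold change 1.31). DYNC2I2 moved opposite to its partner intermediate chain, from 131 and 164 to 74.7 and 76.8 CPM (log2 fold change -0.96), and passed the fold threshold, at -1.07, with DESeq2 size factors and with DESeq2, and at -1.16 without naive H9 replicate 1. The heavy chain DYNC2H1 (0.60), DYNC2LI1 (-0.40) and IFT52 (0.31) passed the adjusted p only, and IFT57 was called at 1.21.

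TCTN2 was at 2.61 and 3.50 CPM in naive and at 9.64 and 8.36 CPM in primed H9 (log2 fold change 1.54 ± 0.18, adjusted p = 8.02e-09). TCTN3 (0.57) and TCTN1 (0.48) passed the adjusted p without the fold threshold. Among dynein heavy chains, DNAH3, an inner arm chain, had its highest values of the human samples in naive H9, at 13.4 and 10.4 CPM, against 1.33 and 1.00 CPM in primed H9 (log2 fold change -3.43 ± 0.26, adjusted p = 3.85e-13). DNAH10, a chain of the inner arm f dynein, was at 2.93 and 2.81 CPM in naive and 0.210 and 0.572 CPM in primed cells (log2 fold change -2.60 ± 0.37), but 14.1% of its exonic bases overlap genes on the opposite strand and the counts did not use strand. DNAH11, an outer arm chain required for left-right asymmetry, rose from 2.14 and 1.49 to 6.01 and 6.31 CPM (log2 fold change 1.76 ± 0.24). DNAH9 and DNAH5, the outer arm chains of airway cilia, had no more than 3 counts in either naive library. Against a floor of 3 counts, primed cells were at least 4.10-fold higher for DNAH9 (0.489 and 0.858 CPM) and at least 9.09-fold higher for DNAH5 (1.61 and 1.38 CPM). DNAH14, the DNAH gene with the highest mean TPM over all human samples, passed the adjusted p only (7.63 and 7.74 to 11.2 and 12 CPM, log2 fold change 0.60).

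Fibroblast marker genes were also higher in the naive libraries. The 6 genes summed to 665 to 686 CPM in naive and 267 to 276 CPM in primed H9, and COL3A1 stood at 181 and 172 against 0.0699 and 0.0477 CPM, while DCN had no count in primed H9. The same 6 fibroblast genes summed to 562 to 628 CPM in primed RUES2-GLR. They reached 992 to 1059 CPM in early and 583 to 686 CPM in late RA-gastruloids. These sums rest on different genes. Of the 6, 0 were at or under 3 counts in naive H9, 3 in primed H9 and 3 in primed RUES2-GLR. In early and late RA-gastruloids, 2 and 0 were. Germ cell markers summed to 69.8 to 72.6 CPM in naive and 2.31 to 2.91 CPM in primed H9. The part of either cell signature in the DNAH differences was not tested.

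The comparison of primed cells of different lines asks how far H9 and RUES2-GLR, taken as the same stage, differ. The 3 tectonic genes were the only members called, all higher in RUES2-GLR. This was 3 of 41 members called higher and none lower, where 17.1% of all genes tested were called higher and 12.2% lower. Ignoring the fold threshold, edgeR put 7 members higher and 7 lower, where 25.0% and 33.5% of all genes tested passed. An unadjusted p below 0.05 was reached by 8 members each way, and the share of all genes reaching it was not counted. DESeq2 called 3 higher and 0 lower. TMM scaling left a median log2 fold change of -0.12 over all genes here, and the median was 0.00 with DESeq2 size factors. The transport median was -0.03 and the DNAH median -0.27, whereas the TCTN median was 1.66.

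TCTN1 was at 5.73 and 5.98 CPM in primed H9 and at 33.1 and 37.0 CPM in primed RUES2-GLR (log2 fold change 2.55 ± 0.15, adjusted p = 7.39e-15). TCTN3 was at 48.1 and 52.2 against 160 and 158 CPM (1.66 ± 0.12, adjusted p = 1.98e-13), and TCTN2 at 9.64 and 8.36 against 21.5 and 21.3 CPM (1.27 ± 0.16, adjusted p = 6.98e-08). Every RUES2-GLR value lay above every H9 value for all 3 genes, and the calls held under each alternative tried, including leaving out either RUES2-GLR library. Other transition zone genes were examined as a list of 16. Of these, 4 were called higher, all encoding membrane proteins of the same gate: TMEM67 (2.54), TMEM231 (2.25), TMEM107 (1.83) and TMEM17 (1.34), and none was called lower. The dynein-2 genes DYNC2H1 (-0.50), DYNC2I1 (-0.81) and DYNC2I2 (-0.61) and IFT57 (-0.38) passed the adjusted p with lower values in RUES2-GLR, and DYNC2LI1 (0.71) with higher values. IFT52 (0.12) and DNAH14 (0.04) were within the spread of replicates, DNAH9 had -0.35 ± 0.54, and DNAH11 passed the adjusted p at -0.87. The mitochondrial share of counts also differed between these lines, 2.68% and 3.01% in primed H9 against 21.4% and 22.4%, and its part in these values was not tested.

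**Figure D3:**
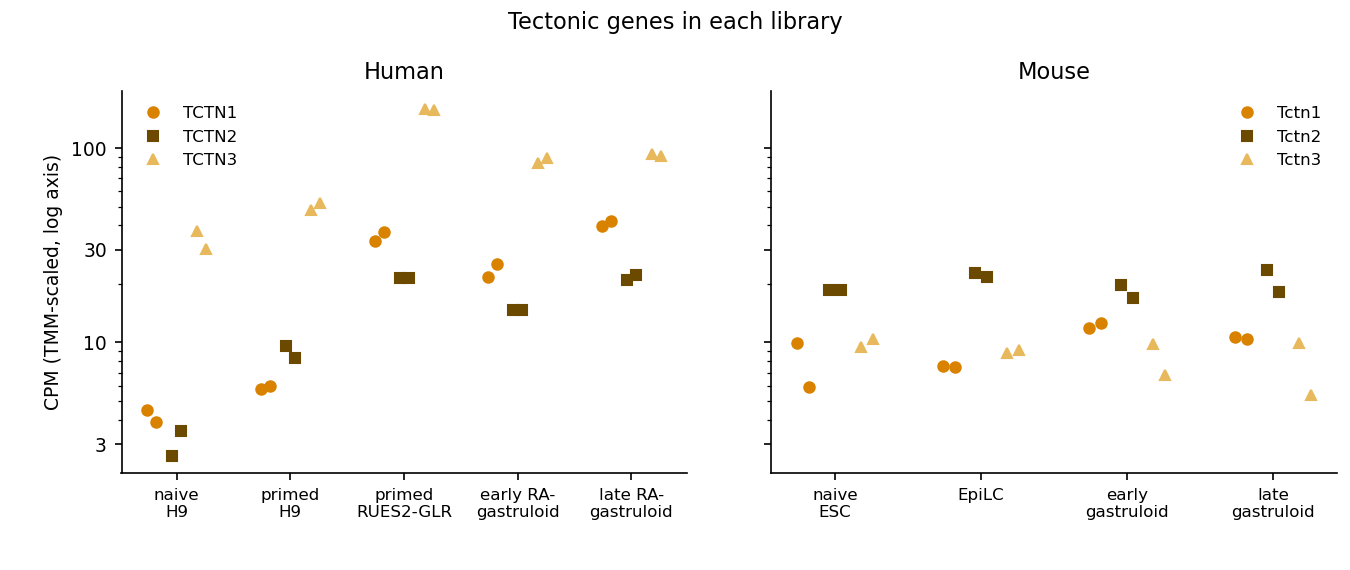
CPM of the tectonic genes in each library (log axis; each point is 1 library). In human, all 3 genes sit higher in primed RUES2-GLR than in primed H9, and TCTN1 runs from 3.90 CPM in a naive library to 42.2 CPM in a late RA-gastruloid library; in mouse, values stay between 5.36 and 23.7 CPM.

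From primed RUES2-GLR cells to early RA-gastruloids, 7 transport genes and 4 axonemal dynein heavy chains rose, and the 3 tectonic genes passed the adjusted p with lower values but not the fold threshold. A total of 11 members were called higher and none lower, where 12.0% of all genes tested were called higher and 17.6% lower. By edgeR, 6 members had lower values at an unadjusted p below 0.05, a share not counted over all genes. DESeq2 called 7 members higher and 1 lower. Upper quartile scaling instead gave 9 higher and 2 lower, and leaving out primed RUES2-GLR replicate 1 left 6 higher. The calls comprised 7 of 27 transport genes and 4 of 11 DNAH genes. The transport median was 0.65 and the DNAH median 0.81, against 0.08 over all genes, and 20 of 27 transport genes passed the adjusted p with higher values while 3 passed with lower values, compared with 29.7% and 26.1% of all genes.

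IFT57, an IFT-B subunit, showed the largest transport rise, from 32.8 and 33.8 CPM to 106 and 101 CPM (log2 fold change 1.65 ± 0.12, adjusted p = 8.77e-13). BBS2, a core BBSome subunit, rose from 6.55 and 4.14 to 17.3 and 19.6 CPM (1.64 ± 0.21, adjusted p = 6.35e-08). BBS5 rose from 1.23 and 0.956 to 3.56 and 2.73 CPM (1.42 ± 0.40), a call that was lost, at 1.63, when primed RUES2-GLR replicate 1 was left out. All early values of these genes lay above all primed values. DYNC2H1, the motor chain of retrograde transport, rose from 23.3 and 23.9 to 58.9 and 58.6 CPM (1.32 ± 0.15, adjusted p = 3.07e-09), and DYNC2I2 (0.65), DYNC2LI1 (0.62), DYNC2I1 (0.52) and IFT52 (0.69) passed the adjusted p. Of the kinesin-2 genes, which drive the opposite direction, KIFAP3 (1.88) and KIF3B (1.41) were called of 4 tested. TCTN3 moved from 160 and 158 to 84.0 and 89.2 CPM (-0.88), TCTN1 from 33.1 and 37.0 to 21.6 and 25.2 CPM (-0.56) and TCTN2 from 21.5 and 21.3 to 14.7 and 14.6 CPM (-0.55). These 3 passed the adjusted p only, although TCTN3 also passed the fold threshold, at -1.01, under upper quartile scaling. Among the other transition zone genes, TMEM67 (-1.70) and TMEM231 (-1.02) were called lower, and NPHP4 (1.23) and B9D2 (1.25) higher.

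DNAH9 was the clearest dynein change. It was at 0.573 and 0.637 CPM in primed RUES2-GLR and at 15.4 and 12.9 CPM in early RA-gastruloids, with 160 and 128 counts (log2 fold change 4.57 ± 0.36, adjusted p = 3.03e-12). Its call held under each alternative. The gene lies at chr17:11598470-11969748 on the plus strand of GRCh38, and 2.18% of its exonic bases overlap another gene. The other calls rested on few counts. DNAH6, an inner arm chain, had 4 and 0 counts in primed and 11 and 12 in early libraries (log2 fold change 2.10 ± 0.73, adjusted p = 0.0145), and the call was lost with DESeq2, without early RA-gastruloid replicate 2 (2.01), and without primed RUES2-GLR replicate 1 (7.23, with no counts left in the primed group) or replicate 2 (1.73). DNAH7, also an inner arm chain, had 2 and 1 counts in primed libraries and was at 1.54 and 0.606 CPM in early RA-gastruloids. A floor of 3 counts was 0.246 and 0.956 CPM in the primed libraries. Early replicate 2 lay under the second of these, so no bound on the fold is given. The DNAH7 call was lost with DESeq2, without early RA-gastruloid replicate 1 (1.6) and without primed RUES2-GLR replicate 1 (1.65). DNAH3 went from 0.573 and 0.319 to 2.02 and 0.807 CPM (1.44 ± 0.62, adjusted p = 0.0475) and lost its call under 5 alternatives of scaling, tool and filter. It also lost it without early RA-gastruloid replicate 1 (0.64) or without primed RUES2-GLR replicate 1 (2.05) or 2 (1.26). DNAH14 (-0.04) and DNAH11 (-0.18) differed by less than the spread of replicates.

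The 2 early RA-gastruloid libraries were not alike for these long, weakly expressed genes. Replicate 1 was higher than replicate 2 for 11 of the 13 DNAH genes. Such an uneven order of DNAH genes also occurred elsewhere: replicate 2 was higher for 12 of 15 in EpiLCs and for 10 of 13 in primed H9. Among all 7679 genes with a group mean of 0.2 to 3 CPM, replicate 1 was higher for 64.7%, compared with 46.4% to 53.8% in every other group of either species. DNAH9 (15.4 and 12.9 CPM) differed little between them, whereas DNAH2 (1.63 and 0.202 CPM) and DNAH5 (2.11 and 0.404 CPM) differed several-fold.

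From early to late RA-gastruloids, 5 dynein heavy chains fell while BBS5, IFT172 and DNAH6 rose. In total, 3 members were called higher and 5 lower, where 11.8% of all genes tested were called higher and 13.2% lower. All 5 lower calls were DNAH genes, of 11 tested, and the DNAH median was -0.93 against 0.00 over all genes. The transport class had 2 higher calls of 27 and a median of 0.34. The count of lower calls became 2 without early RA-gastruloid replicate 1, 8 without early replicate 2, and 3 without late replicate 1.

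BBS5 rose again, from 3.56 and 2.73 to 11.7 and 11 CPM (log2 fold change 1.85 ± 0.24, adjusted p = 9.06e-08). IFT172 rose from 21.1 and 19.8 to 42.4 and 40.2 CPM, at 1.01 ± 0.13 just past the fold threshold. It stood at 0.99 with DESeq2 or its size factors and with the 2 groups alone, and at 0.97 without early replicate 2 or late replicate 1. Both genes had all late values above all early values. IFT57, which had risen in the step before, moved from 106 and 101 to 57.0 and 52.1 CPM (-0.92, adjusted p = 2.71e-08) without passing the fold threshold. DYNC2I2 (0.55), DYNC2H1 (0.49), TCTN1 (0.81) and TCTN2 (0.55) passed the adjusted p only, and DYNC2I1 (0.02), DYNC2LI1 (-0.08), TCTN3 (0.09) and IFT52 (0.20) did not pass it.

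DNAH9 went from 15.4 and 12.9 to 5.28 and 4.79 CPM (-1.48 ± 0.21, adjusted p = 5.95e-07), and DNAH11 from 3.65 and 2.32 to 0.727 and 1.02 CPM (-1.85 ± 0.36, adjusted p = 7.76e-05). Both calls held under each alternative. DNAH17, an outer arm chain of sperm flagella, went from 2.21 and 1.31 to 0.873 and 0.815 CPM (-1.05 ± 0.43, adjusted p = 0.0431). That call was lost with DESeq2, without a filter and under a replicate block (-1.02), as well as without early replicate 1 (-0.61), late replicate 1 (-1.11) or late replicate 2 (-1.0), and 12.6% of its exonic bases overlap opposite-strand genes. DNAH2, a chain of the inner arm f dynein like DNAH10, had 17 and 2 counts in early and 1 and 0 counts in late libraries. Early replicate 2 was itself under the floor of 3 counts, so the call rested on early replicate 1 and was lost without it (-2.38), and no bound on the fold is given. DNAH6 rose from 1.06 and 1.21 to 2.47 and 2.85 CPM (1.21 ± 0.40, adjusted p = 0.0115), a call lost with DESeq2, without early replicate 1 (1.11) and without late replicate 2 (1.14). DNAH14 passed the adjusted p only (-0.85). The fifth lower call was DNAH3 (-1.6), named after its values were seen; its early (2.02 and 0.807 CPM) and late (0.291 and 0.815 CPM) values overlapped.

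**Figure D4:**
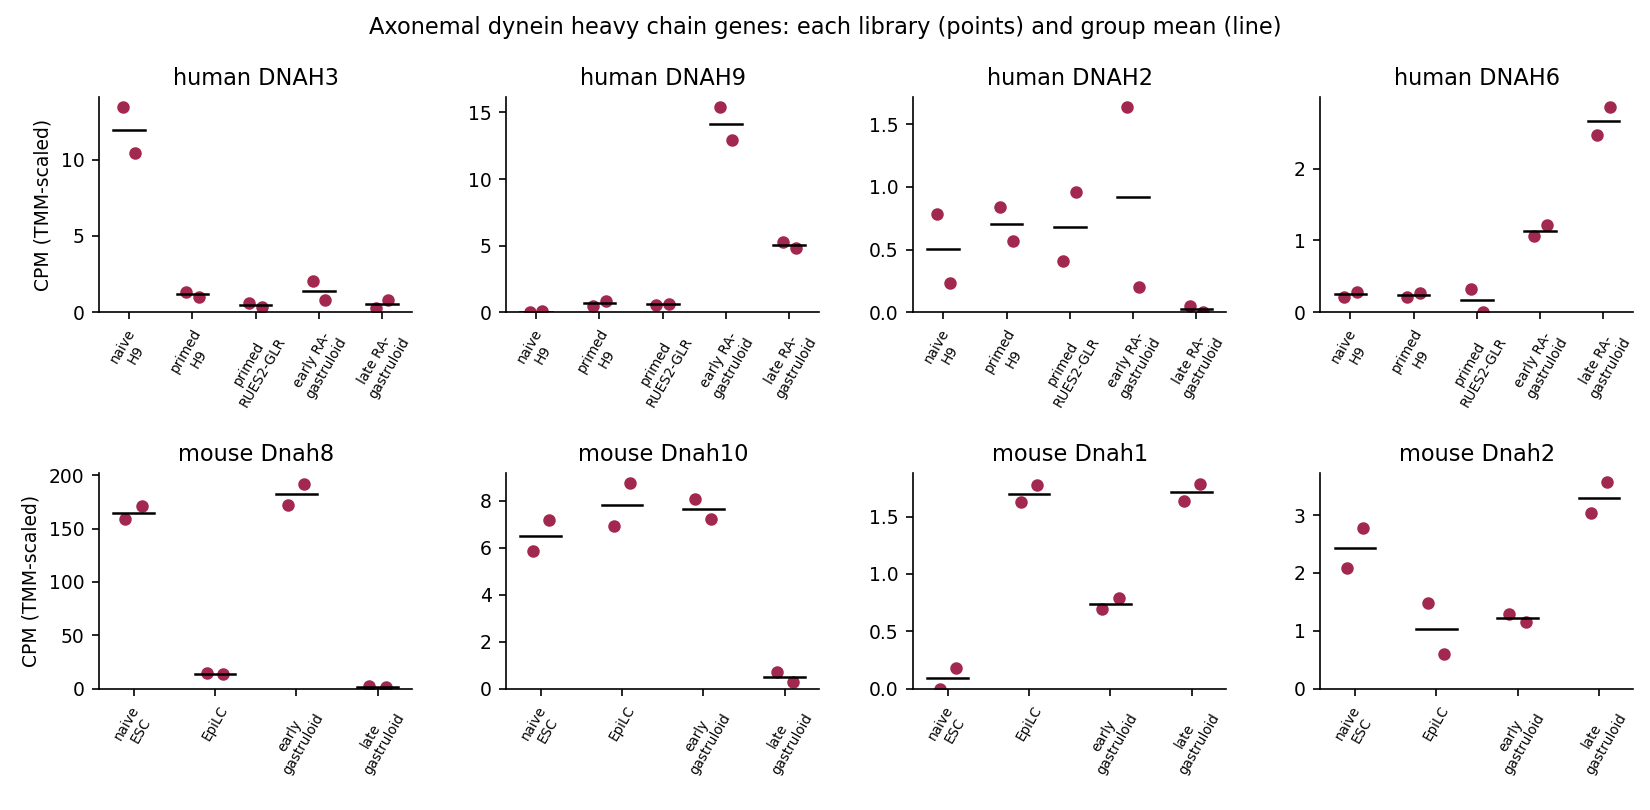
CPM of 4 human (top) and 4 mouse (bottom) axonemal dynein genes. Points are libraries, lines are group means, each panel has its own scale starting at 0. DNAH3 is high in naive H9 alone and DNAH9 in RA-gastruloids, while Dnah8 alternates between 160 to 192 CPM and under 15 CPM; the early RA-gastruloid points of DNAH2 lie far apart.

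In mouse, 5 dynein heavy chains and 2 transport genes were called between naive ESCs and EpiLCs. Dnah8 was higher in naive ESCs, and Dnah1, Dnah5 and Dnah11 in EpiLCs. Altogether 5 members were called higher in EpiLCs and 2 lower, where 17.7% of all genes tested were called higher and 12.1% lower. Transport genes gave 2 higher calls of 30, with a median of 0.13 against 0.02 over all genes. The adjusted p was passed by 12 transport genes with higher and 7 with lower values, compared with 33.8% and 32.2% of all genes. TCTN genes gave no call of 3, and DNAH genes 3 higher and 2 lower calls of 7.

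Dnah8 was at 160 and 171 CPM in naive ESCs (1143 and 1905 counts) and at 14.5 and 13.5 CPM in EpiLCs (98 and 205 counts). The groups were far apart (log2 fold change -3.58 ± 0.09, adjusted p = 2.85e-40). The gene lies at chr17:30843328-31096339 on the plus strand of GRCm39, and 2.42% of its exonic bases overlap another gene. Dnah2 went from 2.09 and 2.78 to 1.48 and 0.592 CPM (-1.49 ± 0.44, adjusted p = 0.00234), a call lost without EpiLC replicate 2 (-0.75) or without naive ESC replicate 2 (-1.24). Dnah1, an inner arm chain, had 0 and 2 counts in naive ESCs and was at least 4.95-fold higher in EpiLCs (1.63 and 1.78 CPM). By the same bound, Dnah11 was at least 4.64-fold and Dnah5 at least 3.94-fold higher in EpiLCs, and the Dnah5 call was lost without naive ESC replicate 2 (1.67). Dnah10 did not differ beyond the spread of replicates (5.86 and 7.18 against 6.95 and 8.75 CPM, log2 fold change 0.29). Dync2i2 rose from 28.5 and 33.1 to 89.2 and 84.7 CPM (1.48 ± 0.09, adjusted p = 2.28e-22), the strongest transport change of this step. Ift88, an IFT-B subunit whose loss prevents ciliogenesis, rose from 10.5 and 11.5 to 25.1 and 21.9 CPM (1.06 ± 0.14), and to 0.99, short of the threshold, without EpiLC replicate 1. Dync2h1 (0.75) and Ift52 (-0.68) passed the adjusted p only. Dync2i1 (-0.21), Dync2li1 (0.20), Ift20 (0.06), Tctn1 (-0.01), Tctn2 (0.24) and Tctn3 (-0.15) did not pass it.

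Between EpiLCs and early gastruloids, no transport or TCTN gene was called and Dnah8 was higher in early gastruloids. A single member was called higher and 3 lower, where 11.7% of all genes tested were called higher and 9.24% lower. The transport median was 0.05 and the DNAH median -0.07, against 0.01 over all genes. By edgeR, 9 transport genes were higher and 7 lower at an unadjusted p below 0.05, as were 1 TCTN gene each way. The share of all genes at that unadjusted p was not counted, and 32.3% passed the adjusted p with higher and 30.5% with lower values. DESeq2 called 1 member higher and 1 lower with the threshold. Dnah8 rose from 14.5 and 13.5 to 172 and 192 CPM (3.72 ± 0.09, adjusted p = 4.38e-41). Dnah5 (1.33 and 1.38 to 0.395 and 0.528 CPM, -1.59 ± 0.54), Dnah11 (1.48 and 1.71 to 0.593 and 0.792 CPM, -1.27 ± 0.46) and Dnah1 (1.63 and 1.78 to 0.691 and 0.792 CPM, -1.23 ± 0.45) were called lower from 6 to 27 counts per library. These 3 calls were lost with DESeq2, without EpiLC replicate 2, where no member was called lower (Dnah5 -1.55, Dnah11 -1.13, Dnah1 -1.14), and without early gastruloid replicate 1 (-1.35, -1.03 and -1.11). Dync2i2 moved from 89.2 and 84.7 to 45.2 and 45.3 CPM (-0.94), and Tctn1 (0.69), Ift52 (0.50) and Dync2h1 (-0.21) also passed the adjusted p only. Dync2i1 (0.13), Dync2li1 (0.17), Ift20 (-0.16), Tctn2 (-0.25), Tctn3 (-0.07), Dnah10 (-0.07) and Dnah2 (0.48) did not pass it. Exonic overlap with Hvcn1 concerns 19.0% of Tctn1.

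From early to late mouse gastruloids, 8 transport genes rose and Dnah8, Dnah10 and Dnah12 fell, Dnah12 to 0 and 1 counts. Among members, 10 were called higher and 4 lower, where 20.1% of all genes tested were called higher and 19.1% lower. The transport class had 8 higher calls and 1 lower call of 30, with a median of 0.55 against -0.03 over all genes, and 20 transport genes passed the adjusted p with higher and 6 with lower values, compared with 37.6% and 38.5% of all genes. DNAH genes had 2 higher and 3 lower calls of 7.

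Bbs12, a chaperonin-like partner of Bbs10 in BBSome assembly, rose from 2.17 and 2.99 to 11.9 and 11.2 CPM (2.21 ± 0.23, adjusted p = 4.19e-13). Ift81 rose from 11.4 and 12.8 to 46.6 and 42.0 CPM (1.90 ± 0.11, adjusted p = 2.19e-22), and Ift25, an IFT-B subunit that is dispensable for building cilia but needed for Hedgehog signalling, from 4.44 and 4.31 to 13.3 and 11.8 CPM (1.52 ± 0.19, adjusted p = 5.74e-10). Late values of these genes were all above early values. The 5 other transport rises ranged from 1.09 to 1.26. Bbs5 fell from 9.19 and 8.35 to 3.39 and 4.77 CPM (-1.14 ± 0.22, adjusted p = 7.11e-06), and stood at -0.89, short of the fold threshold, without late gastruloid replicate 1. Dync2i1 rose to just under the fold threshold (0.98) and passed it with DESeq2 size factors (1.03), with DESeq2 (1.05) and without early gastruloid replicate 1 (1.09) or late gastruloid replicate 1 (1.04). Dync2li1 (0.66), Ift20 (0.59), Dync2h1 (0.50), Ift52 (-0.21) and Dync2i2 (-0.72) passed the adjusted p only, and Tctn1 (-0.21), Tctn2 (0.19) and Tctn3 (-0.13) did not pass it.

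Dnah8 fell from 172 and 192 CPM (3492 and 2187 counts) to 1.98 and 1.49 CPM (17 and 10 counts), a 102-fold difference (log2 fold change -6.68 ± 0.14, adjusted p = 5.68e-45). Dnah10 fell from 8.10 and 7.21 to 0.70 and 0.298 CPM (-3.86 ± 0.37, adjusted p = 4.25e-14). Dnah12, an inner arm chain, had 30 and 13 counts in early and 0 and 1 in late libraries, at least 3.29-fold lower. In the opposite direction, Dnah2 rose from 1.28 and 1.14 to 3.04 and 3.57 CPM (1.41 ± 0.37, adjusted p = 0.000613). Dnah1 rose from 0.691 and 0.792 to 1.63 and 1.79 CPM (1.21 ± 0.48, adjusted p = 0.0212), a call lost with DESeq2, without early gastruloid replicate 1 (1.09) and without late gastruloid replicate 1 (1.28) or 2 (1.16). The naive pluripotency markers followed the same order of groups as Dnah8 apart from the early gastruloids, summing to 1197 to 1256 CPM in naive ESCs, 48.2 to 49.2 in EpiLCs, 444 to 451 in early and 25.2 to 27.3 in late gastruloids. The part of remaining naive-like cells in the Dnah8 values was not tested.

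Whether a step differed between species was tested directly, as the human change minus the mouse change, over genes matched by symbol. For naive to primed, 16 of the 42 shared members were called, 8 with a more positive change in human and 8 in mouse, where 19.0% and 23.2% of all matched genes were called in these directions. IFT140, an IFT-A subunit, rose in human (9.46 and 11.1 to 31.0 and 35.1 CPM) and went from 36.3 and 36.7 to 24.7 and 21.3 CPM in mouse, a difference of 2.28 ± 0.18. DYNC2I2 showed the reverse (difference -2.55 ± 0.16), its human log2 change being -0.96 and its mouse change 1.48. DNAH1 (-3.85 ± 1.05) and DNAH10 (-2.98 ± 0.41) had the more positive change in mouse, but mouse Dnah1 had only 0 and 2 counts in naive ESCs, so the size of its difference is not determined. DNAH17 (1.77 ± 0.66) and DNAH8 (2.17 ± 0.85) had it in human, but human DNAH8 had 8 and 2 counts in naive and 1 and 5 in primed libraries. The DNAH8 call was lost without naive H9 replicate 2 (1.58) or primed H9 replicate 2 (1.66). The DNAH17 call was lost with DESeq2 and without naive H9 replicate 1 (1.52), primed H9 replicate 2 (1.42), EpiLC replicate 1 (1.54) or naive ESC replicate 2 (1.16).

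For early to late, 14 of 42 shared members were called, 7 in each direction, where 16.7% and 18.7% of all matched genes were called with the more positive change in human and in mouse. BBS5 and DNAH2 were called in opposite directions in the separate fits. BBS5 rose to 11.7 and 11 CPM in human and fell to 3.39 and 4.77 CPM in mouse (difference 3.14 ± 0.33). DNAH2 was at or under 1 count in late human libraries and rose in mouse (difference -5.77 ± 1.19), and this call was lost without early RA-gastruloid replicate 1 (-3.63), so its size is not determined. DNAH10 (3.54 ± 0.69) fell less in human, and DNAH8 (4.11 ± 1.28) rested on 11 and 3 human early counts against 2 and 1 late counts, its call being lost without late RA-gastruloid replicate 1 (4.22). DNAH11 (-2.16 ± 0.67) and IFT25 (-2.04 ± 0.24) had the more positive change in mouse, and the DNAH11 call was lost without late mouse gastruloid replicate 1 (-1.85). Human IFT25 moved from 35.1 and 37.4 to 23.0 and 22.6 CPM. The TCTN genes gave 1 call in each step, TCTN2 in the first (1.18) and TCTN1 in the second (1.16), both with the more positive change in human.

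**Figure D5:**
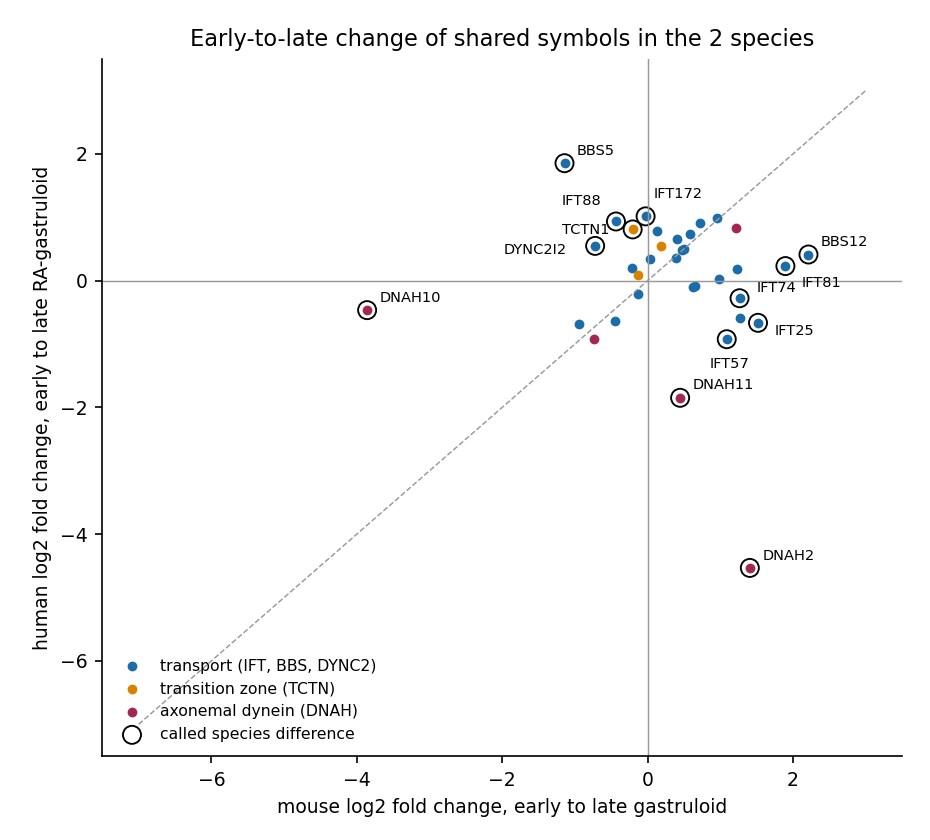
Early-to-late log2 fold change of shared symbols that were tested in both species, mouse on the x axis and human on the y axis; the dashed line marks equal change and rings mark called species differences. BBS5 and DNAH2 sit in opposite quadrants, and DNAH10 lies far to the left; DNAH8 is not drawn because it was not tested in the human fit.

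Other genes of the pathway were counted in lists. The shares of all genes called, given above for each comparison, apply to these counts too. Members of IFT complexes with other symbols gave 5 higher calls of 8 from naive to primed H9 (25.5% of all genes), led by WDR35, an IFT-A subunit (4.22), and between 0 and 2 calls in each other comparison of either species. BBSome subunits and regulators gave 3 higher calls of 7 from naive to primed H9 (LZTFL1, ARL6 and BBIP1) and 2 of 7 from early to late mouse gastruloids (Ttc8 1.62, Bbip1 1.56), and at most 1 call elsewhere. The transition zone list gave 8 higher calls of 16 and none lower from naive to primed H9 (25.5% and 22.3% of all genes), with a median of 0.94, and in late mouse gastruloids 4 higher and 1 lower of 16. Kinesin-2 genes had no call in mouse. Cytoplasmic dynein 1, which works outside the cilium, gave at most 1 call of 10 in human and of 8 in mouse per comparison.

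Genes of motile axonemes other than the heavy chains did not follow DNAH genes in late human RA-gastruloids. Of 11 tested radial spoke, central pair and related genes, 7 were called higher and 1 lower from early to late RA-gastruloids (11.8% and 13.2% of all genes; median 1.44), including RSPH4A (3.62), RSPH1 (2.31) and SPAG6 (2.23), while 5 of 11 DNAH genes were called lower. In mouse the same step gave 2 higher and 4 lower calls of 8 (median -1.05), with Hydin (-4.21) and Rsph4a (-3.74) lowest. Dynein arm assembly and docking factors gave 5 higher calls of 13 from naive to primed H9 and 4 lower calls of 13 from early to late mouse gastruloids, in each case with none in the other direction. The remaining dynein arm subunits, of which 5 human and 4 mouse genes were tested, gave 1 higher and no lower call from early to late in human, and 1 higher and 2 lower in mouse.

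FOXJ1, the main regulator of motile cilia, rose from 0.366 and 0.631 CPM in naive H9 to 14.5 and 15.0 CPM in primed H9 (4.88), was called lower from there to RUES2-GLR (-2.86) and in early RA-gastruloids (-1.27), and rose to 28.0 and 24.1 CPM in late RA-gastruloids (4.95). Mouse Foxj1 was called higher in the first 2 steps (2.15 and 1.17), reached 15.0 and 16.0 CPM in early gastruloids, and was called lower in late ones (-1.59). Over the list of ciliogenesis transcription factors, 4 of 11 were called higher and 1 lower from early to late in human, and 1 of 10 higher and 6 lower in mouse. Markers of multiciliated cells, of which 10 were counted in human and 7 in mouse, summed to 332 to 342 CPM in early and 563 to 702 CPM in late RA-gastruloids, mostly TUBB4B. Their defining regulators MCIDAS and GMNC were at or below 0.480 CPM in every RA-gastruloid library. In mouse, Gmnc was at 1.43 and 2.81 CPM in early gastruloids and not counted in late ones, and the list summed to 551 to 566 and 259 to 263 CPM. The human list summed highest in naive H9, at 829 to 911 CPM, with primed H9 at 472 to 494 CPM and primed RUES2-GLR at 330 to 356 CPM. The part of multiciliated cells in the DNAH values was not tested. Hedgehog pathway genes that act at the primary cilium gave 7 higher calls of 10 and none lower from early to late mouse gastruloids (20.1% and 19.1% of all genes; median 1.37), compared with 3 higher and 2 lower in human.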

How the data were processed

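Poly(A) RNA-seq libraries (NEBNext Ultra II) of 18 samples in 9 groups of 2 were analysed. Per the labels and the study's methods, the authors demultiplexed reads (bcl2fastq 2.20), checked them (FastQC), trimmed them (Trimmomatic 0.39), mapped them by species (STAR; GRCh38, GRCm39) and counted genes with featureCounts defaults, which ignore strand and drop multimapping and ambiguous reads. The deposited values are raw counts with an exonic length per gene. The annotation release is not given in the sources used here; gene IDs were matched to GENCODE 44 and M39 (44876 of 44910 and 29486 of 29720 found). The rule also matched 5 human and 2 mouse symbols that were not protein-coding and were left out.

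Genes passing filterByExpr (18300 human, 15003 mouse) were fitted once per species with edgeR 4.0.16 (TMM, quasi-likelihood test, Benjamini-Hochberg adjustment over all genes), under R 4.3.3. Calls needed an adjusted p below 0.05 and an absolute log2 fold change above 1. Species differences used 14007 genes of 15371 matched by symbol. CPM used TMM-scaled libraries and TPM used the deposited lengths. Folds against libraries at or under 3 counts are bounds against a floor of 3 counts per library, 0.0715 to 0.956 TMM-scaled CPM in human and 0.148 to 0.447 in mouse; floors cover counting error only. The scripts were tested on simulated data. Alternatives were DESeq2 1.42.0, its size factors, upper quartile scaling, other filters, no fold threshold, fits of the compared groups alone, a replicate block and leaving out each library. Named genes were, per comparison and class, up to 3 largest non-overlapping rises and falls among calls, all TCTN and DYNC2 genes and the 3 highest genes by mean TPM. Members and lists were chosen with earlier results of these data known.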

Additional observations from a re-analysis of the deposited data

Results flagged for a closer look

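For 12 changes of a gene, human and mouse differed in a test of the difference itself, edgeR's quasi-likelihood interaction, given as the human minus the mouse log2 fold change. From naive to primed, the differences were 2.28 for IFT140, 2.17 for DNAH8, 1.77 for DNAH17, -3.85 for DNAH1, -2.98 for DNAH10 and -2.55 for DYNC2I2. From early to late, they were 4.11 for DNAH8, 3.54 for DNAH10, 3.14 for BBS5, -5.77 for DNAH2, -2.16 for DNAH11 and -2.04 for IFT25. They were selected as the largest in each direction, and human and mouse libraries differ in cell line, protocol and sampling time as well as species, which cannot be told apart. Mouse Dnah1 in naive ESCs (0 and 2 counts) and human DNAH2 (1 and 0 counts) and DNAH8 (2 and 1 counts) in late RA-gastruloids were at or under the floor of 3 counts, so the sizes of those 3 differences are not determined. Human DNAH8 also had few counts in naive H9 (8 and 2) and primed H9 (1 and 5). The calls of DNAH8 in both steps, and of DNAH17, DNAH2 and DNAH11, were lost when 1 library was left out: DNAH8 from naive to primed without naive H9 replicate 2 (1.58) or primed H9 replicate 2 (1.66), DNAH8 from early to late without late RA-gastruloid replicate 1 (4.22), DNAH17 without any of 4 libraries (1.16 to 1.54), DNAH2 without early RA-gastruloid replicate 1 (-3.63) and DNAH11 without late mouse gastruloid replicate 1 (-1.85).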

How the results depend on the processing

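Of 127 named gene results, 67 kept their direction and side of the threshold under all alternatives, 60 changed side under at least 1, and 0 reversed. The alternatives include dropping the fold threshold in the same fit, which by construction moves every result that passed the adjusted p alone. The 60 therefore do not measure dependence on scaling, tool, filter or libraries only. Without the fold threshold, the members passing were 21 higher and 10 lower from naive to primed H9, 7 and 7 from primed H9 to RUES2-GLR, 24 and 6 from RUES2-GLR to early RA-gastruloids, 16 and 10 between early and late RA-gastruloids, 15 and 9 from naive ESCs to EpiLCs, 11 and 10 from EpiLCs to early gastruloids and 22 and 9 from early to late mouse gastruloids, with 25 and 22 species differences. The shares of all genes tested that passed higher and lower follow in the same order of comparisons. In human they were 37.6% and 37.7%, 25.0% and 33.5%, 29.7% and 26.1%, and 26.3% and 25.7%. In mouse they were 33.8% and 32.2%, 32.3% and 30.5%, and 37.6% and 38.5%. Such shares were not counted for the species differences. Upper quartile scaling gave 5 higher calls from primed H9 to RUES2-GLR and 2 lower calls from RUES2-GLR to early RA-gastruloids. Fits of the compared groups alone gave 5 higher calls from primed H9 to RUES2-GLR, 1 lower call from RUES2-GLR to early RA-gastruloids and 3 lower calls from early to late RA-gastruloids. DESeq2 gave 7 higher calls and 1 lower call from RUES2-GLR to early RA-gastruloids, 1 higher call between early and late RA-gastruloids and 1 lower call from EpiLCs to early gastruloids. DESeq2 size factors, no filter and the filter at 1 CPM each gave 1 lower call from RUES2-GLR to early RA-gastruloids.

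Leaving out 1 library gave 3 to 5 higher calls from primed H9 to RUES2-GLR (5 without RUES2-GLR replicate 2), 6 to 13 higher and 0 to 1 lower from RUES2-GLR to early RA-gastruloids (6 without RUES2-GLR replicate 1), 2 to 8 lower from early to late RA-gastruloids, 1 to 3 lower from naive ESCs to EpiLCs and 0 to 4 lower from EpiLCs to early gastruloids. The replicate block gave 4 lower calls from early to late RA-gastruloids, 4 lower from EpiLCs to early gastruloids and 17 species differences from naive to primed, with all other member counts as without the block. Deviations of same-numbered samples correlated at -0.048 to 0.068, so the replicate numbers were not taken to pair samples. Depth limits the DNAH genes: DNAH2, for example, had 0 to 24 counts per human library.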
